A study of Homo sapiens with 18 samples.

Results

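The genes described here are 47 lysosome and autophagy genes, taken by gene symbol from a fixed list of lysosomal enzymes and membrane proteins, transcription factors of the TFEB family, autophagy genes and genes of lysosomal nutrient sensing. All 47 were found, among 26702 genes in all. The samples were RNA-seq libraries of polyadenylated RNA from U2OS cells, a human osteosarcoma line. They had received siControl, siRFXANK or siANKRA2 and were kept for 24 h with 10 µM Nutlin-3a, which frees p53 from MDM2, or with its solvent DMSO. These 6 groups had 3 samples each, 18 in all, and the siRFXANK samples carry labels of another form, which name the tissue as bone and the cells as epithelial. The value described for each gene is the authors' mean normalized count, a single mean over all samples of their model with no error and no value per sample. Which samples entered it is not stated, and whether it covers these 18 alone cannot be told from the means used here. Each value is thus a pooled abundance over the samples of that model, and no group of cells was compared with another here.

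The lysosome is the acidic compartment in which cells degrade proteins, glycans and lipids. Autophagy delivers cytoplasm to it in double-membrane vesicles, and the lysosome's surface is where mTORC1 senses amino acids through the RAG GTPases. TFEB, TFE3 and MITF, basic helix-loop-helix leucine zipper factors, switch on many lysosomal genes through a palindromic DNA element, CLEAR, whose core is an E-box.

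The stretches around such E-boxes are shown because they are a sequence feature of some members. The members were picked by gene symbol and not by sequence. However, these factors act on many lysosomal genes through this element, so the shares below are not independent of that choice. The 250 bases before the RefSeq start site were searched for cacgtg, which reads the same on both strands. Windows from RefSeq on GRCh38 were at hand for 36 members, some of which have several starts, with 45 windows in all. The E-box was in at least 1 window of 9 members (25%), compared with 7.73% of all 27305 genes with a window and 10.7% of the 12285 of them that are protein-coding in the tables. Per window, it was in 9 of the members' 45 and in 6.34% of all 35116. The 8-base form tcacgtga, which contains the E-box, was in 5 members (13.9%) and in 1.79% of the protein-coding genes. Per window, this form was in 11.1% of the members' 45 and in 0.854% of all. The 10-base palindrome gtcacgtgac, which contains both, was in GAA and MCOLN1 (5.56% of the 36 members) and in 0.684% of the protein-coding genes. Per window, the palindrome was in 4.44% of the members' 45 and in 0.308% of all. No test was made of these shares, and a match is a description and not a binding site. Windows were not at hand for ATP6V1A, ATP6V1H, CTSB, CTSK, HEXA, LAMP2, NAGLU, PSAP, RRAGD, SGSH and UVRAG.

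Each sequence below is read 5′ to 3′ on the strand of its gene, and capitals mark the longest of these motifs. GAA, the lysosomal acid alpha-glucosidase that degrades glycogen, had the 10-base palindrome at 2 places, chr17:80101493-80101522 and chr17:80101538-80101567. In MCOLN1, which encodes the lysosomal calcium channel mucolipin-1, the 8-base form at chr19:7522571-7522600 was followed by the 10-base palindrome at chr19:7522598-7522623. LAMP1 is shown at chr13:113297068-113297097, 1 of 4 E-boxes that followed each other closely, and at chr13:113297199-113297228, 22 bases before the start. ATP6V0D1 is shown at chr16:67481199-67481228, CTSA at chr20:45891298-45891327, CTSD at chr11:1763957-1763986, NEU1 at chr6:31862930-31862959, FNIP1 at chr5:131797094-131797123 and RRAGC at chr1:38859867-38859896.
GAA, distal: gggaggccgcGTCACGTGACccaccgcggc
GAA, proximal: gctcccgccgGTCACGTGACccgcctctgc
MCOLN1, distal: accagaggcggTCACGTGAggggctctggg
MCOLN1, proximal: gggctaccggGTCACGTGACcgaggc
LAMP1, distal: gccgctgcgggtCACGTGccgctgcgggtc
LAMP1, proximal: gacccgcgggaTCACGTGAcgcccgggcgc
ATP6V0D1: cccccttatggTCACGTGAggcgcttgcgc
CTSA: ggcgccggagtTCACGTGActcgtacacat
CTSD: gccggccgcgccCACGTGaccggtccgggt
NEU1: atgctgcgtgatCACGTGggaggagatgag
FNIP1: tccgcgcgccgcCACGTGatgcggcccccc
RRAGC: aggtgattccggCACGTGacggggcaccac

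In total these 9 members held 17 E-boxes in their windows, 5 of them before LAMP1. All were within 186 bases of the start, as the plot of E-box positions shows. Of the 17 stretches, 12 lie before the start of the gene as GENCODE 29 annotates it, 4 lie inside the annotated gene (1 for ATP6V0D1, 1 for CTSD and 2 for CTSA) and 1, of GAA, lies across its start.

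**Figure D1:**
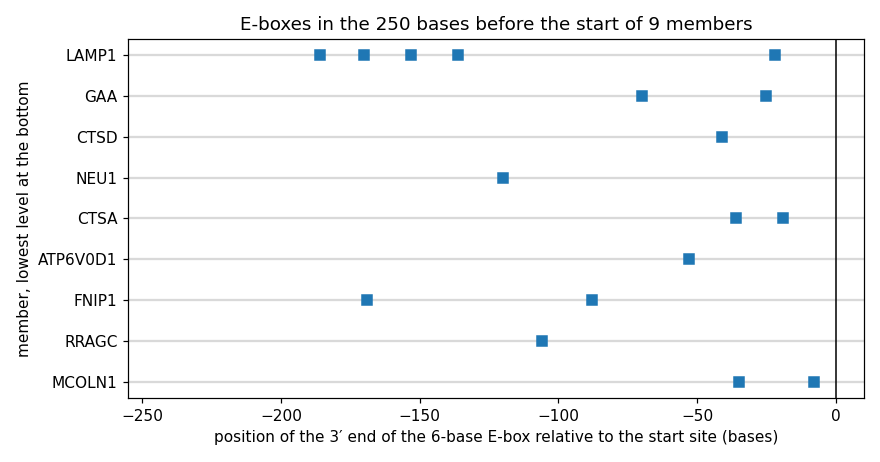
Each square is an E-box of 6 bases, placed by the distance in bases from its 3′ end to the RefSeq start site (0, vertical line), with the 9 members that hold one ordered by their level. LAMP1 at the top has 5 squares, and MCOLN1 at the bottom has squares at 35 and 8 bases, the latter the nearest to a start.

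To compare genes with each other, the mean normalized count was divided by the length of the gene's merged exons in kb, and this quantity is the level given below. Over the 47 members the median level was 252 per kb, with quartiles of 121 and 617. Over the 15943 protein-coding genes of the tables it was 101 per kb, with quartiles of 13.2 and 314. Of the members, 39 were above the protein-coding median, 22 above the upper quartile, and CTSK at 14.1 and ULK2 at 10.8 were the lowest. These are levels in bulk RNA, in which fewer expressing cells and less RNA per cell cannot be told apart. Since the values are pooled, the spread between samples is not known, and genes of similar level cannot be ordered.

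**Figure D2:**
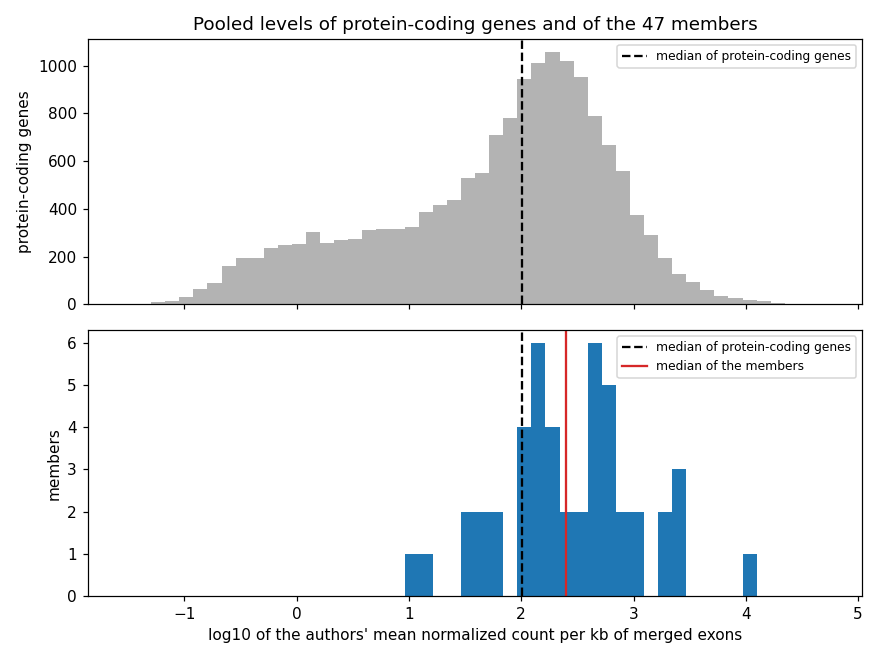
The upper panel counts protein-coding genes, and the lower panel the 47 members, by the log10 of the authors' mean normalized count per kb of merged exons. The members' median (red line, 252 per kb) lies to the right of the protein-coding median (dashed line, 101 per kb), and PSAP stands alone at the right end.

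The summed counts were concentrated in a few members. PSAP, SQSTM1, CTSB and LAMP1 together had 52.6% of the members' summed mean normalized counts. The members as a whole had 0.602% of the sum over all genes, while being 0.176% of the genes in number. Set against protein-coding genes alone, they had 0.651% of the sum and were 0.295% of the genes in number. Before division by length, 31 members had a mean normalized count of at least 1000, 15 lay between 100 and 1000, and only CTSK, at 26.6, lay below 100.

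**Figure D3:**
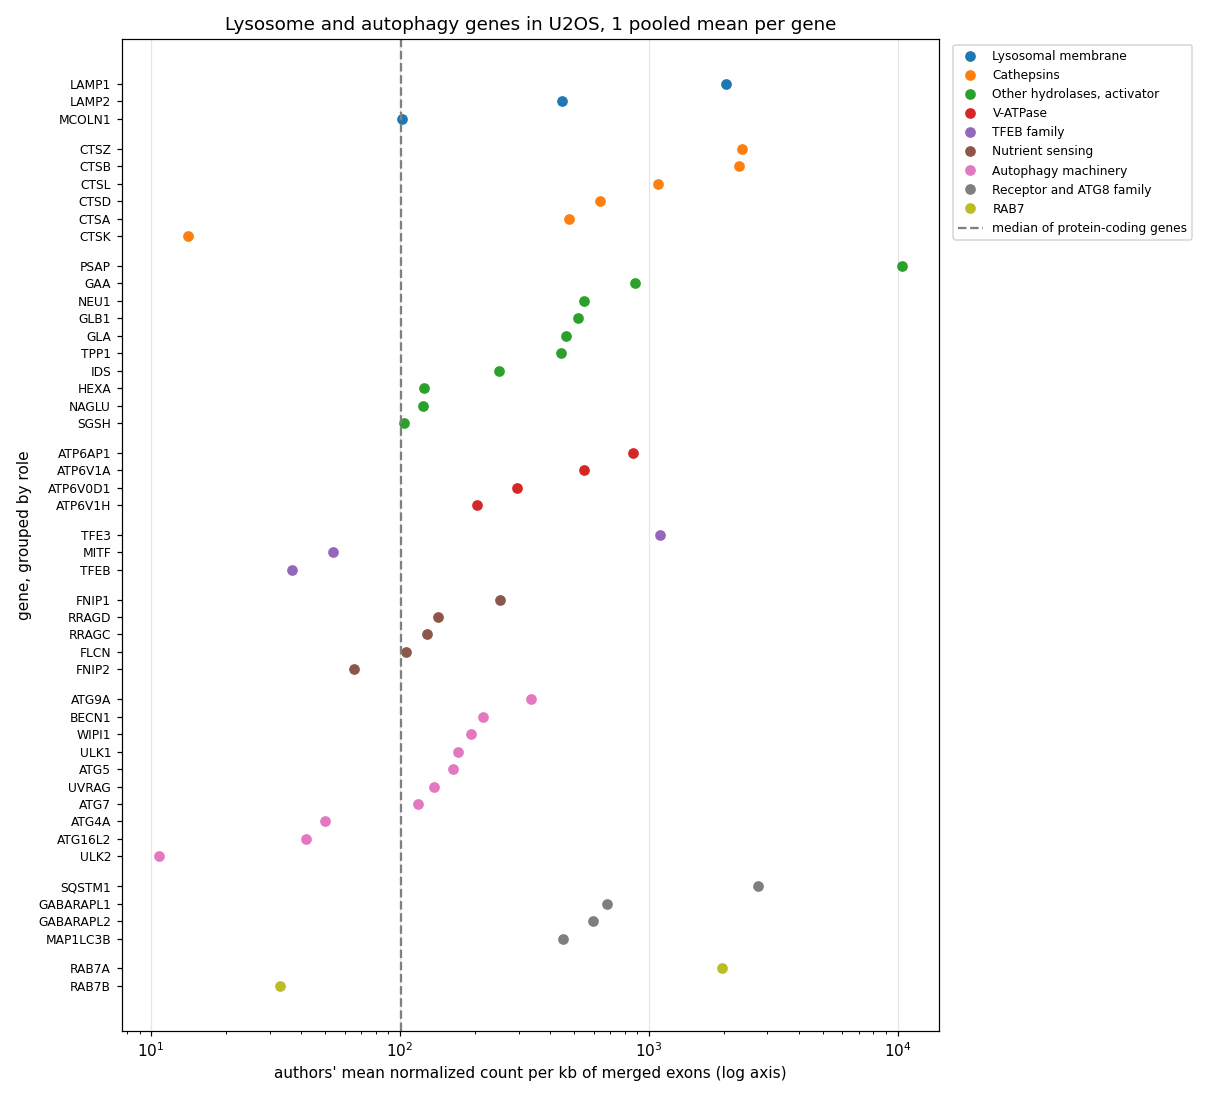
Each point is 1 gene's authors' mean normalized count per kb of merged exons on a log axis, with genes grouped by role and ordered within a role. There is 1 pooled value per gene and no error bar. The points span from 10.8 for ULK2 to 10404 for PSAP, and the dashed line is the median of protein-coding genes, 101.

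Of the 3 members that encode proteins of the lysosomal membrane itself, LAMP1 had the highest level. The paralogs LAMP1 and LAMP2 are the heavily glycosylated proteins that line the inner face of this membrane. The mean normalized count was 11776 for LAMP1 and 2480 for LAMP2. Per kb, the level was 2052 for LAMP1 and 449 for LAMP2, a ratio of 4.57. The channel gene MCOLN1 had a level of 102, next to the protein-coding median, and its window held E-boxes in 2 places, as shown above.

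The cathepsins, proteases of the lysosome, had the largest ratio of the highest to the lowest level among the groups of members, 168. CTSZ, a carboxypeptidase, was at 2362 per kb and CTSB, a cysteine protease, at 2297. They were followed by the cysteine protease CTSL at 1086, the aspartic protease CTSD at 637, and CTSA, a serine carboxypeptidase that also protects beta-galactosidase and neuraminidase, at 480. CTSK, the collagen-degrading protease known from osteoclasts, was at 14.1 per kb, so CTSB was 163 times as high. Without division by length CTSB was 642 times as high as CTSK. The order of the cathepsins above CTSK also depends on the length used. Per kb of the longest transcript CTSB, at 4403, was above CTSZ, at 3220. With no division CTSA, at 2811, was above CTSL, at 2570. CTSD is less certain than the rest of this group, since 52.7% of its merged exons overlap other annotated genes. Of its longest transcript, 61.5% occurs also in transcripts of other genes, mostly a gene annotated across it. For CTSA, genes on the opposite strand overlap 28.5% of the merged exons. Of the longest transcripts of CTSB and CTSL, 17.0% and 16.5% recur in other genes.

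Among the other hydrolases and their helpers, PSAP was at 10404 per kb, the highest level of all 47 members and above 99.7% of all genes. It encodes prosaposin, the precursor of the saposins, which help lysosomal enzymes to reach their lipid substrates. PSAP had a mean normalized count of 33697, and its longest transcript shares no stretch of 31 bases with other genes. The level was 882 for GAA, 550 for NEU1, the lysosomal sialidase, 519 for GLB1, the beta-galactosidase, 465 for GLA, the alpha-galactosidase A, and 443 for TPP1, the tripeptidyl peptidase. The remaining enzymes of this group were lower. IDS, the iduronate 2-sulfatase, was at 250, HEXA, the alpha subunit of beta-hexosaminidase, at 125, NAGLU, an N-acetylglucosaminidase, at 124, and SGSH, a sulfamidase, at 104. Of the latter genes, IDS is uncertain, since 27.8% of its longest transcript recurs in other genes.

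The members also include 4 genes of the V-ATPase, the pump that acidifies the lysosome. The accessory subunit ATP6AP1 was at 865 per kb, and ATP6V1A, the catalytic subunit of the cytosolic part, at 550. ATP6V0D1, part of the membrane sector, was at 294, and ATP6V1H, a regulatory subunit, at 204. Among these 4 members the highest level was 4.23 times the lowest, while other V-ATPase subunits given below reached further in both directions.

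TFE3 was the most abundant transcript of the 3 transcription factors. Its mean normalized count was 4741, compared with 388 for MITF and 209 for TFEB. Per kb, TFE3 was at 1107, MITF at 54.1 and TFEB at 37.0. The ratio of TFE3 to TFEB was 29.95 per kb of merged exons, 17.3 per kb of the longest transcript and 22.7 with no division by length. TFE3 was above 94.8% of all genes and TFEB above 50.8%. MITF and TFEB changed their distance with the length used, from a ratio of 1.46 per kb of merged exons to 1.003 per kb of the longest transcript, and cannot be ordered.

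The factors are held in the cytoplasm by mTORC1 at the lysosome, for which folliculin (FLCN), its partners FNIP1 and FNIP2, and the RAG GTPases RRAGC and RRAGD are needed. FNIP1 was the highest of these genes at 252 per kb, and FNIP2, its paralog, the lowest at 65.7, a ratio of 3.85. RRAGD was at 142, RRAGC at 129 and FLCN at 106. The place of FLCN depends on the length used. Per kb of the longest transcript FLCN was at 285, above RRAGC at 244 and RRAGD at 147 and next to FNIP1 at 304. Which of RRAGC and RRAGD is higher depends on the length, since the ratio of RRAGC to RRAGD was 0.906 per kb of merged exons and 1.66 per kb of the longest transcript. Moreover, 43.3% of the longest transcript of RRAGC and 40.1% of that of FLCN occur in transcripts of other genes annotated across them.

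The members that start and build the autophagosome had a median of 150 per kb over 10 genes. ATG9A, the membrane protein of the seed vesicles, was at 337, but 45.5% of its longest transcript is shared with another annotated gene. BECN1, a subunit of the lipid kinase complex, was at 215, and its partner UVRAG at 138. WIPI1, a reader of the lipid made by this kinase, was at 194. Of the kinases that start the process, ULK1 was at 172 and ULK2 at 10.8, with mean normalized counts of 1305 and 106. The ratio of ULK1 to ULK2 was 15.9 per kb of merged exons and 13.9 per kb of the longest transcript. In the conjugation machinery, ATG5 was at 163, the E1-like enzyme ATG7 at 119, the protease ATG4A at 49.95 and ATG16L2, a paralog of the ATG5 partner ATG16L1, at 42.0. Genes on the opposite strand overlap 28.1% of the merged exons of WIPI1, 18.1% of those of ATG7 and 17.1% of those of BECN1. Of the longest transcript of BECN1, 12.3% recurs in other genes.

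The members also include 3 genes of ATG8-like proteins, which are coupled to lipid on the growing membrane. GABARAPL1 was at 679 per kb, GABARAPL2 at 597 and MAP1LC3B at 454. SQSTM1, which encodes the receptor p62 that links ubiquitinated cargo to ATG8-like proteins, was at 2739, the second highest member. Its mean normalized count was 20967, and its level was 6.03 times that of MAP1LC3B. Of its merged exons, 22.0% overlap MGAT4B and MRNIP on the opposite strand. Of the longest transcript of MAP1LC3B, 15.4% recurs in other genes, most of all in its near copy MAP1LC3B2.

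RAB7A, the GTPase of late endosomes and lysosomes, was at 1975 per kb with a mean normalized count of 5366. RAB7B, a paralog that acts between endosomes and the Golgi, was at 33.0 with a mean normalized count of 122. The ratio was 59.9 per kb of merged exons and 59.3 per kb of the longest transcript.

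The 9 members with an E-box had levels from 102 for MCOLN1 to 2052 for LAMP1, with a median of 480 per kb. In the 27 members whose window held none, levels ran from 10.8 to 2739, with a median of 250. Both ranges overlap widely, and the 11 members without a window had a median of 142, PSAP included.

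Further genes of the lysosome and of autophagy were taken from a list of 61, of which 60 had a value. Their median level was 279 per kb, and 50 were above the protein-coding median. The highest were CD63, a tetraspanin of late endosomes, at 4012, LAPTM4A, a lysosomal membrane protein, at 2457, and ATP6V0E1, a small V-ATPase subunit, at 1753. The lowest were MAP1LC3C, a further LC3 gene, at 1.08, ATP6V0A1, a membrane subunit of the V-ATPase, at 3.32, and TFEC, the remaining factor of the TFEB family, at 11.6. This value of TFEC was below those of its 3 relatives among the members. MAP1LC3A was looked up by symbol but had no value. The mean normalized count was 1.28 for MAP1LC3C, near the lowest means of all genes, and 36.3 for ATP6V0A1. Overlap and shared sequence were not searched for these further genes.

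For the series as a whole, ANKRA2, a target of the knockdown, had a mean normalized count of 31568, above that of every member but PSAP. Per kb, ANKRA2 was at 11872, above every member, PSAP at 10404 included. RFXANK had a mean normalized count of 758. Which samples entered these means is not stated, so they need not be the abundance in the 18 samples alone. The knockdown itself cannot be checked from these means. The marker values that follow are mean normalized counts, not divided by length. Markers of the osteoblast lineage were mixed, with COL1A1 at 64042 and SPARC at 29456, but RUNX2 at 454, ALPL at 148, COL1A2 at 33.2 and BGLAP at 2.08. Of the epithelial markers, KRT8 was at 21456 and KRT18 at 12960, EPCAM at 161 and CDH1 at 32.9. The leukocyte markers PTPRC and CD68 and the endothelial markers PECAM1 and CDH5 lay between 1.33 and 3.87, near the lowest means of the tables. SP7 and CD3E were looked up by symbol as well but had no value.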

How the data were processed

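RNA-seq was made from 18 samples in 6 groups of 3. The submitters' processing notes name Trimmomatic 0.39, cutadapt 2.10, SAMtools 1.10, Picard, featureCounts 1.6.5 and DESeq2 1.20.0 and the build hg38. The aligner, the annotation and the use of strand are not given in the sources used here, and the paper describes other experiments.

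The authors deposited 6 tables of DESeq2 comparisons. The deposited signal used here is the authors' mean normalized count per gene, a mean of counts divided by size factors. It was the same in every table (largest difference 0), and which samples entered it is not stated. The other columns hold fold changes, standard errors, test statistics and p-values of the authors' own comparisons, which were not used, so no test between groups was made. The depth of the libraries is unknown. All 47 members were in all 6 tables, as were 22738 of the 26702 genes (85.2%), and each gene missing from a table had a mean of at most 2.34.

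Means were divided by the length of merged exons in GENCODE 29 (GRCh38), which held 99.8% of the gene IDs. Sequence in common was searched in runs of 31 bases, as the part of a member's longest transcript found in transcripts of other genes. RefSeq windows on GRCh38.p14 were searched for motifs, and their shares per gene were added after the data were seen. Python 3.11.15 and pandas 2.3.3 were used, and percentiles, lengths and overlaps were checked on simulated data. The members and the lists were chosen with earlier results of these data known. All members were to be named, with the 3 highest and 3 lowest of the further genes, the knockdown targets and the cell markers. Alternatives were another gene length and other sets of genes to rank against.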

Additional observations from a re-analysis of the deposited data

How the results depend on the processing

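No paired analysis was possible because the values are means over samples and carry no replicate numbers. For the same reason, replicates were not left out in turn, and the spread between samples sets no error here. Dividing by the longest transcript in place of the merged exons moved the median level of the members from 252 to 396 per kb, and with no division the median was 1594 normalized counts. The median member was above 78.5% of all genes per kb, above 70.2% of protein-coding genes, above 74.7% of genes in all tables and above 68.9% of genes with a mean of at least 10. By their own construction, these sets hold fewer genes of low level. In order among the 47 members, 4 moved by more than 5 places with the longest transcript, by 8 at most (NEU1), and 12 with no division by length, by 11 at most (TPP1). Of the members, 22 have exons that overlap another gene, 14 of them over more than 10% of their length, and 13 share more than 10% of their longest transcript with other genes.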
